A study of Mus musculus with 6 samples.

Results

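Lsd1 binding was described at the 9 mouse genes of the TEAD transcription factors and their partners: Tead1, Tead2, Tead3, Tead4, Yap1, Wwtr1 (which encodes TAZ), Vgll2, Vgll3 and Vgll4. The genes were chosen by name, with earlier results of these data known. An Lsd1 peak was counted for a gene where its centre lay within the gene's curated RefSeq span or 10 kb either side (mm10). This gave 169 of 95852 peaks, namely 73 of 43426 in myogenic medium, 35 of 18893 in adipogenic medium and 61 of 33533 in LSD1(OE) cells.

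The peaks came from ChIP-seq of Lsd1, a lysine-specific histone demethylase, in C2C12 cells, a mouse myoblast line, on day 1 of differentiation. Wild-type cells were kept in myogenic medium with 2% horse serum, or in adipogenic medium with 10% FCS and an inducer cocktail that contained rosiglitazone and dexamethasone. LSD1(OE) cells were kept in the adipogenic medium. They are a G418-selected lentiviral line that carries Flag-tagged LSD1 under a doxycycline-inducible promoter, so the effects of the line, of doxycycline and of the Lsd1 level cannot be told apart. Each condition had 1 ChIP and 1 input library. The values below therefore have no replicates, no test between conditions was made, and the 95% intervals cover counting error only. After the duplicate filter the myogenic ChIP library kept 46155625 tags, the adipogenic one 63915769 and that of LSD1(OE) 55193310, and the weakest peak had 27, 35 and 30 tags, respectively, so that the library with the fewest tags had the longest peak list. Peak lists carry no expression values, so neither the identity of the cells nor the level of Lsd1 was checked.

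TEAD proteins bind DNA but depend on cofactors to act on transcription. YAP and TAZ are coactivators that the Hippo kinases keep out of the nucleus, and VGLL proteins bind TEADs in competition with, or in place of, YAP and TAZ. In muscle, the family is known for the control of myoblast proliferation and of muscle gene expression, and TAZ is also known as a modulator of the choice between the bone and fat lineages. A peak is a place where ChIP tags exceeded the local background. Its score is 10 times −log10 of the p-value that the peak caller gave it, and 50 is the lowest score in each list. The caller scaled the ChIP tags up to the input by 1.90 (myogenic), 1.28 (adipogenic) and 1.82 (LSD1(OE)). Scores are therefore not on one scale across the libraries. For unscaled tags, each score was divided by this factor as an approximation, and peaks then under 50 were dropped. No peaks were called again.

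Sequences at or near strong signals are shown first, because the values that follow refer to them. All are mm10, 5′ to 3′, with capitals marking matches to the core of the TEAD motif (GGAATG), an E-box of the type bound by myogenic factors (CAGCTG) or an AP-1 site (TGANTCA), searched on both strands. The first holds the LSD1(OE) summit in intron 3 of Vgll4 (chr6:114889119-114889418, plus strand), the strongest peak outside a promoter among these genes, and has a match to the TEAD core.
Vgll4 intron 3: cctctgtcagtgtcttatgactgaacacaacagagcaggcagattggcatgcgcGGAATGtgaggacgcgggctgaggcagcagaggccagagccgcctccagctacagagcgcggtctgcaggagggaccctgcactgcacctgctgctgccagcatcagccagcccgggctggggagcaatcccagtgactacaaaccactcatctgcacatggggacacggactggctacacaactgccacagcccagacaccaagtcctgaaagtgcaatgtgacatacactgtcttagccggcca
The next holds the LSD1(OE) summit at the Vgll3 promoter (chr16:65815633-65815836, plus strand, with the summit in a coding exon), with an E-box and an AP-1 match, and without the adjoining bases of the untranslated region.
Vgll3 promoter: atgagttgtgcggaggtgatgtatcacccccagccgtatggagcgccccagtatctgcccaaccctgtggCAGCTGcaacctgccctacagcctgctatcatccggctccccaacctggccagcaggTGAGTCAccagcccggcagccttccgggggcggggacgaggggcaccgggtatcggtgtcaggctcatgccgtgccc
The following pair was added after the values were seen. These are the LSD1(OE) summit in intron 2 of Tead1 (chr7:112812261-112812560, plus strand) and the myogenic summit in intron 1 of Tead4 (chr6:128275820-128276119, plus strand), the strongest peak of each gene outside its promoter, and neither window has a match.
Tead1 intron 2: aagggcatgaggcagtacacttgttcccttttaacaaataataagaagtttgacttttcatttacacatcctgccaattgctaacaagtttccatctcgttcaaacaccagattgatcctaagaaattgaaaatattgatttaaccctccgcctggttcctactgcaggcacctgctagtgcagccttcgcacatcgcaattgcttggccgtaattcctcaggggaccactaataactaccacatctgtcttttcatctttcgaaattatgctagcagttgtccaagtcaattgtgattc
Tead4 intron 1: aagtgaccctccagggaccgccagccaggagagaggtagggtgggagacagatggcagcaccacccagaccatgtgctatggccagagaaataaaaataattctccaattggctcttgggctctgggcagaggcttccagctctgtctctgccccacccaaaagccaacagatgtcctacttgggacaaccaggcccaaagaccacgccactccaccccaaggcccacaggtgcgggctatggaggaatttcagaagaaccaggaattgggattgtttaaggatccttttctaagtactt
The strongest promoter summit of Tead4 lies in untranslated sequence and is not printed. At Wwtr1 and Yap1 the promoter summits lie in or next to untranslated sequence, so the stretch just upstream of the start site is given from RefSeq. It was also added after the values were seen (Wwtr1, chr3:57575911-57576160, and Yap1, chr9:8004639-8004846, both minus strand). Both stretches have a match to the TEAD core. The 300 bp around the strongest summit of each promoter, in the myogenic library, have no match. In the adipogenic library, the window around the stronger promoter summit of each gene has a TEAD core, and that around the weaker one does not. The window at the LSD1(OE) promoter summit of Wwtr1 has no TEAD core either.
Wwtr1 upstream: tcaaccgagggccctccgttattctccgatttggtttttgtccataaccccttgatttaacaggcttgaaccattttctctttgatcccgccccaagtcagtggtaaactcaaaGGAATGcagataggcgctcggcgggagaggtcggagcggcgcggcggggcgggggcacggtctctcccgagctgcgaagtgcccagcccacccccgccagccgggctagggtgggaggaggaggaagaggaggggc
Yap1 upstream: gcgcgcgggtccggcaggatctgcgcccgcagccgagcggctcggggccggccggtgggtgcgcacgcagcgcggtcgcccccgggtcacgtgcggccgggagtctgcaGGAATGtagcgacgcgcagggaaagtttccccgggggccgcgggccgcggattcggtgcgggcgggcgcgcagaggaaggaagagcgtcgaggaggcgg

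All 9 genes had at least 1 peak in the myogenic library, and 8 had one in the adipogenic and in the LSD1(OE) library. Among 26180 curated genes, 62.5%, 41.2% and 53.9% had a peak in span or flank in these libraries. The 9 genes are long, with a median span of 72.6 kb against 13.5 kb for all genes, which gives more room for a peak. Per 100 kb of window they held 8.33, 3.99 and 6.96 peaks in the myogenic, adipogenic and LSD1(OE) libraries, against 2.99, 1.35 and 2.27 over all genes. Most lay in introns (48 of 73, 27 of 35 and 46 of 61 peaks). The centre lay nearest to the start site of a gene other than the 9 for 16, 7 and 11 peaks, so that counting a peak for a gene here is a matter of position alone.

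**Figure D1:**
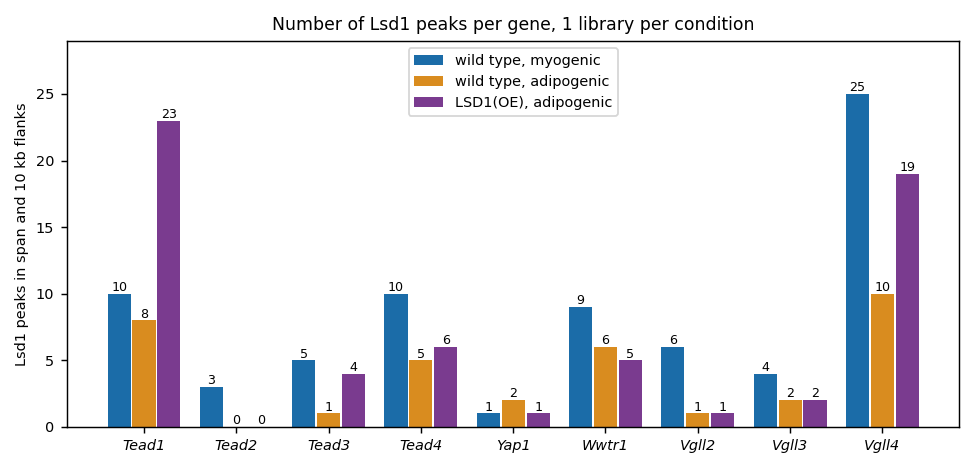
Number of Lsd1 peaks (y axis) in the span and 10 kb flanks of each gene (x axis), with 1 bar per library and no replicates. Tead1 has 10 and 8 peaks in the wild-type libraries and 23 in LSD1(OE), whereas Vgll4 has 25, 10 and 19 peaks.

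Peaks within 2000 bp of a start site, the promoter window of the study's methods, were found at 8 of the 9 genes in the myogenic library, 5 in the adipogenic library and 6 in the LSD1(OE) library. The shares of all genes were 46.8%, 27.0% and 37.3%. Tead4, Wwtr1, Vgll3 and Vgll4 had a promoter peak in all 3 libraries, a pattern of 23.5% of all genes. Tead1 and Vgll2 had one in the myogenic and LSD1(OE) libraries but not in the adipogenic library (10.8% of all genes). Yap1 had one in the myogenic and adipogenic libraries but not in LSD1(OE) (2.53%), Tead2 only in the myogenic library (9.98%), and Tead3 in none (49.7%). With 9 genes, these counts describe the genes and give no test of the group.

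**Figure D2:**
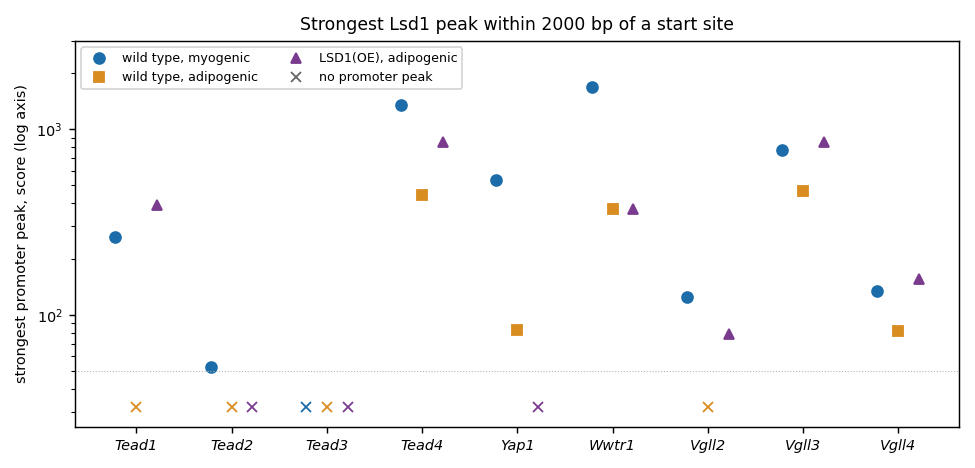
Score of the strongest Lsd1 peak within 2000 bp of a start site (y axis, log axis) for each gene (x axis) and library, where crosses mark genes with no promoter peak and the dotted line is the lowest score in the lists. Wwtr1 and Tead4 reach 1686 and 1344 in the myogenic library, and Yap1 has no promoter peak in LSD1(OE).

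Tead1, one of the 4 TEAD factors, had 10 myogenic, 8 adipogenic and 23 LSD1(OE) peaks. With Tead1 itself counted, 27 of 26180 genes (0.103%) had at least its LSD1(OE) count, and 198 (0.756%) at least its adipogenic count. These ranks take no account of length, and Tead1 spans 227 kb against a median of 13.5 kb for all genes. Per 100 kb of window it held 4.04, 3.23 and 9.30 peaks in the myogenic, adipogenic and LSD1(OE) libraries. The 9 genes together held 8.33, 3.99 and 6.96. The promoter peak scored 263 with 85 tags (67.9 to 105) in the myogenic library and 389 with 129 tags (108 to 153) in LSD1(OE). In the adipogenic library the peak nearest to the start site lay 17720 bp away, in intron 1. Density at the promoter (tags in the peak divided by its length in kb and by the library's ChIP tags, times 1000000) was nearly the same in the 2 libraries with a peak (1.42 and 1.44), with an LSD1(OE) over myogenic ratio of 1.02 (0.769 to 1.36).

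Other peaks of Tead1 were shared by the libraries. In intron 1, 17.7 kb from the start site, the score was 281 in the myogenic, 116 in the adipogenic and 138 in the LSD1(OE) library, with densities of 1.59, 1.19 and 1.15. A peak 38.5 kb from the start site, also in intron 1, was highest in LSD1(OE). It scored 107, 135 and 277, with densities of 1.15, 1.11 and 1.43. LSD1(OE) over myogenic was 0.723 (0.512 to 1.02) at the peak 17.7 kb away and 1.24 (0.869 to 1.78) at this one. In intron 11, 205 kb from the start site, the scores were 229, 140 and 307, and the LSD1(OE) over myogenic ratio was 1.05 (0.769 to 1.44). That peak lay nearer to the start site of Rassf10 than to that of Tead1.

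The additional LSD1(OE) peaks of Tead1 were concentrated in intron 2. Between 100 and 150 kb from the start site, a stretch chosen after the values were seen, the myogenic library had 1 peak, the adipogenic library 1 and the LSD1(OE) library 8, with scores of 50.3 to 620. They covered 683, 1289 and 8818 bp, with 32, 113 and 587 tags. The strongest, whose summit sequence is printed above, scored 620 in LSD1(OE), against 224 in the adipogenic library and 55.0 in the myogenic library. The adipogenic and myogenic peaks there do not overlap each other and were joined through the wider LSD1(OE) peak. Tag densities over the called peaks were 1.02, 1.37 and 1.5 in the myogenic, adipogenic and LSD1(OE) libraries. The LSD1(OE) density was 1.48 times the myogenic one (1.01 to 2.22), at percentile 99.4 of all regions with a peak in both. It was 1.09 times the adipogenic one (0.864 to 1.39), at percentile 51.0. Myogenic over adipogenic was 0.740 (0.483 to 1.10), at percentile 0.269. As these peaks do not overlap, that ratio compares different stretches and shows no change at one site. The myogenic peak does not reach the LSD1(OE) summit either, so the ratio of LSD1(OE) to myogenic compares partly different stretches. Of the 8 LSD1(OE) peaks in this stretch, 5 scored under 100. With the lists cut to equal length, Tead1 held 3, 8 and 10 peaks in the myogenic, adipogenic and LSD1(OE) libraries. The stretch in intron 2 then held 0, 1 and 3. The LSD1(OE) count of the whole gene thus came close to the adipogenic one and stayed above the myogenic one.

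Tead2 and Tead3 had the weakest promoter signals of the TEAD genes. At Tead2, a factor known from early embryonic cells and neural progenitors, the myogenic library had 3 peaks with scores of 52.4 to 69.1, and the other libraries had none in the window. The promoter peak, in intron 1, rested on 28 tags (18.6 to 40.5), and the other 2 lay nearer to the start sites of Dkkl1 and Cd37. None of the 3 remained at a score of at least 100 or with unscaled tags. At Tead3 no peak fell in a promoter window, but intron 2 held a peak with a score of 472 (myogenic) and 146 (LSD1(OE)), and none in the adipogenic library. Tag density there was 1.64 in the myogenic and 1.16 in the LSD1(OE) library, an LSD1(OE) over myogenic ratio of 0.708 (0.521 to 0.954). This was percentile 14.3 of all regions with a peak in both, whose median was 0.879. Downstream of the gene, a peak with scores of 584, 172 and 261 in the myogenic, adipogenic and LSD1(OE) libraries was centred 201, 242 and 33 bp from the start site of Rpl10a, a ribosomal protein gene, and so lies in the promoter window of that gene.

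Tead4, a TEAD factor known as a target of the myogenic factors in differentiating myoblasts, had strong peaks in every library. Its promoter peak scored 1344 in the myogenic, 443 in the adipogenic and 859 in the LSD1(OE) library, above 98.5%, 93.8% and 96.2% of the peaks in each list. The tag counts were 262 (231 to 296), 256 (226 to 289) and 206 (179 to 236). Per kb and 1000000 ChIP tags this came to 2.08, 1.30 and 1.81, highest in the myogenic and lowest in the adipogenic library. The myogenic density was 1.59 times the adipogenic one (1.34 to 1.90) and that of LSD1(OE) 1.39 times (1.15 to 1.68), whereas LSD1(OE) over myogenic was 0.873 (0.724 to 1.05). Among all regions with a peak in both libraries, these ratios lay at percentiles 89.7, 92.9 and 48.6. A broad peak in intron 1, 24.9 kb from the start site and printed above, scored 938, 159 and 394. It spanned 4072 bp in the myogenic library against 1130 and 1583 bp in the others, with densities of 1.5, 1.30 and 1.47, so that here the scores differed much more than the densities did. A group of 3 weak myogenic peaks with scores of 56.7 to 78.5 lay 60.8 to 73.1 kb from the start site, and none was called there in the other libraries.

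**Figure D3:**
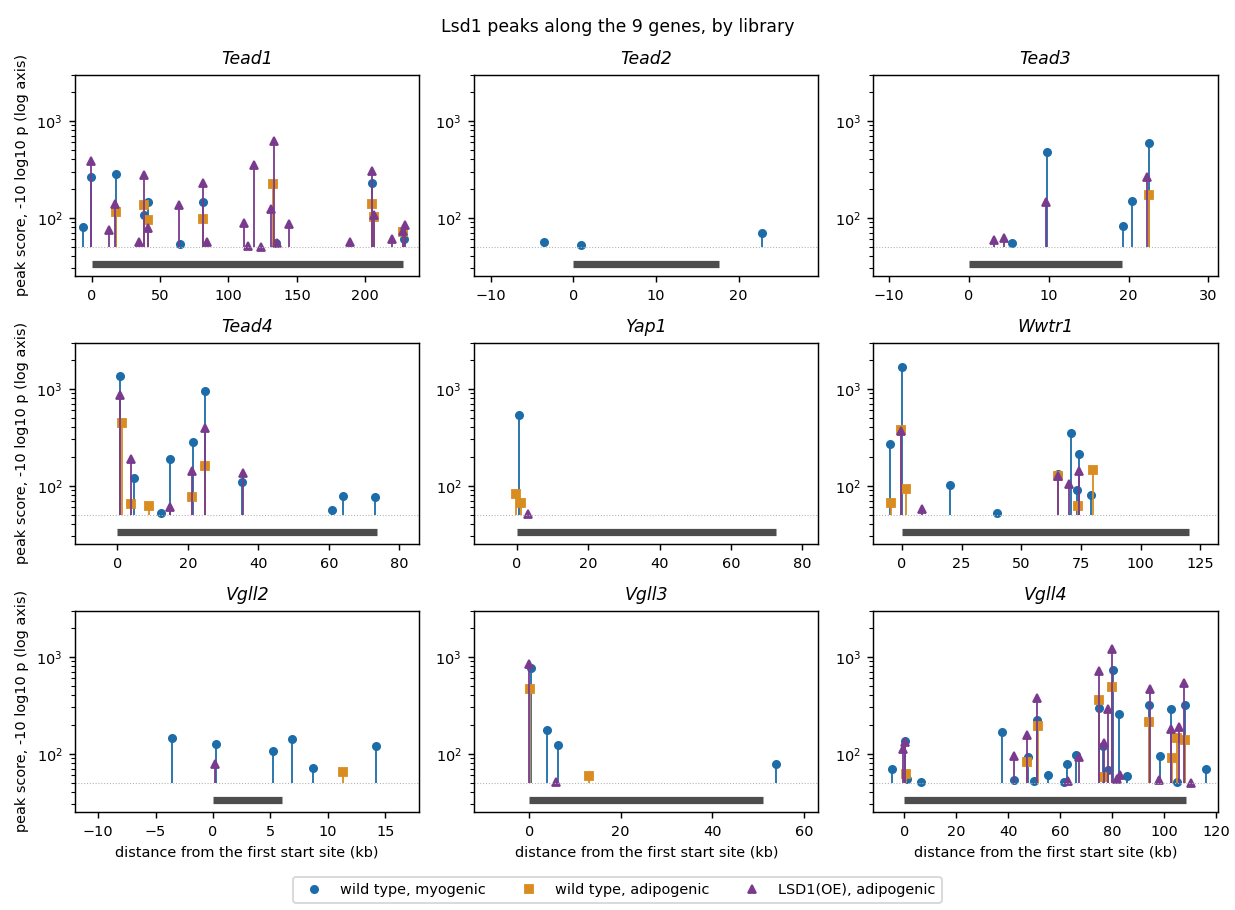
Score of each Lsd1 peak (y axis, log axis) by the distance of its centre from the first start site in the direction of transcription (x axis, kb), for each gene and library. The grey bar is the gene's span and the dotted line the lowest score in the lists. The 8 LSD1(OE) peaks between 100 and 150 kb of Tead1 and the strongest peaks of Vgll4 lie far from the start sites, whereas all 4 peaks of Yap1 lie within 2996 bp of it.

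Of the coactivators, Yap1 had few peaks, all near its start site, in a span of 72.6 kb. The myogenic library had 1 peak across the promoter with a score of 535 and 156 tags (132 to 182). In the adipogenic library there were 2 narrower promoter peaks with scores of 82.7 and 66.9 and 69 and 57 tags. The LSD1(OE) library had no promoter peak, and its only peak, with a score of 51.3 and 31 tags (21.1 to 44.0), lay 2996 bp downstream of the start site in a coding exon. The myogenic density was 1.54 and the adipogenic one 1.04, a ratio of 1.48 (1.16 to 1.89). This was percentile 81.2 of all regions with a peak in both, whose median was 1.25. No density can be given for the LSD1(OE) promoter, since a peak list shows no tags outside peaks. The lowest density of any peak in that list was 0.894, so absence from it does not mean absence of Lsd1. The adipogenic peaks were in turn lost at a score of at least 100, which leaves the myogenic peak as the only one of Yap1.

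Wwtr1, which encodes the coactivator TAZ, had the strongest myogenic promoter peak of the 9 genes, and of all their regions its promoter gave the lowest LSD1(OE) over myogenic density ratio. The promoter peak scored 1686 in the myogenic library, above 99.2% of its list, 374 in the adipogenic and 371 in the LSD1(OE) library. With unscaled tags these scores were 889, 293 and 204. It held 304 tags (271 to 340) in the myogenic library, 175 (150 to 203) in the stronger of 2 adipogenic peaks and 139 (117 to 164) in LSD1(OE). The densities over the region were 2.22, 1.26 and 1.35, so the myogenic library stood above both libraries from adipogenic medium. The ratio of myogenic to adipogenic was 1.76 (1.49 to 2.09), at percentile 96.5 of all regions. The ratio of LSD1(OE) to myogenic was 0.608 (0.494 to 0.746), at percentile 3.67, and that of LSD1(OE) to adipogenic was 1.07 (0.867 to 1.32). The adipogenic density joins 2 peaks, of which the weaker lay 1703 bp into the gene with a density of 0.989. Against the stronger adipogenic peak alone, with a density of 1.46, myogenic was 1.53 times (1.26 to 1.85) and LSD1(OE) 0.929 times (0.738 to 1.17) the adipogenic density, a comparison added after the values were seen, so the direction between LSD1(OE) and adipogenic is not settled. A peak 4.86 kb upstream had a score of 268 in the myogenic and 65.9 in the adipogenic library, with a density ratio of 1.71 (1.22 to 2.43), and no counterpart in LSD1(OE). Within the gene, introns 2 and 3 and the exon between them held weaker peaks between 65.4 and 79.9 kb from the start site in every library, nearer to the start of Gm16016 than to that of Wwtr1, with scores up to 346, 145 and 142.

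Vgll2, a cofactor known for its expression in skeletal muscle, had 6 myogenic peaks, 1 adipogenic and 1 LSD1(OE) peak around a gene of 5.97 kb. The promoter peak scored 125 with 45 tags (32.8 to 60.2) in the myogenic and 79.2 with 42 tags (30.3 to 56.8) in the LSD1(OE) library, with a density ratio of 0.840 (0.538 to 1.31). The other 5 myogenic peaks, with scores of 70.8 to 147, lay from 3544 bp upstream to 14227 bp downstream of the start site. The single adipogenic peak, with a score of 65.6, lay in the downstream flank and overlapped none of them. All of these are weak peaks. The LSD1(OE) peak was lost at a score of at least 100, and with the lists cut to equal length the myogenic library kept 1 of its 6.

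Vgll3, a cofactor known from the control of mesenchymal cell fate, had one dominant peak at its promoter in every library. It scored 774 in the myogenic, 463 in the adipogenic and 852 in the LSD1(OE) library, with 204 (177 to 234), 184 (158 to 213) and 192 (166 to 221) tags. The densities were 1.97, 1.62 and 1.89. Myogenic over adipogenic was 1.22 (0.993 to 1.49) and LSD1(OE) over myogenic 0.959 (0.784 to 1.17), close to even. The other peaks of Vgll3 scored 177 or less.

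Vgll4, a cofactor known to oppose YAP at the TEADs, had the most peaks in both wild-type libraries among the 9 genes, with 25 myogenic, 10 adipogenic and 19 LSD1(OE) peaks. With Vgll4 itself counted, as many or more were found at 31 genes (0.118%), 118 genes (0.451%) and 52 genes (0.199%) in these libraries. Its promoters, around 2 start sites, had weak peaks, of which the strongest scored 135, 81.8 and 156. The stronger ones lay in introns 2 and 3 and in the last exon. The intron 3 peak printed above scored 732 in the myogenic, 492 in the adipogenic and 1203 in the LSD1(OE) library, with 167 (143 to 194), 160 (136 to 187) and 205 (178 to 235) tags. With unscaled tags the scores of this peak were 386, 385 and 659. Its densities were 1.78, 1.86 and 2.41, so that LSD1(OE) was highest. LSD1(OE) over adipogenic was 1.30 (1.05 to 1.60), at percentile 84.8, and LSD1(OE) over myogenic 1.35 (1.09 to 1.67), at percentile 98.2. Myogenic over adipogenic was 0.960 (0.769 to 1.20), at percentile 7.69 and below the median of 1.25 for all regions. An intron 2 peak, 27.4 to 27.7 kb downstream of the nearer start site, scored 295, 362 and 718, with densities of 1.5, 1.52 and 1.85, again highest in LSD1(OE). At the 3′ end of the gene, a peak in the last exon scored 317, 139 and 535, with an LSD1(OE) over adipogenic ratio of 1.46 (1.10 to 1.95). Nearer to the internal start site, in intron 2, a peak centred 3594 to 3900 bp downstream scored 224, 193 and 379, with ratios close to even (myogenic over adipogenic 1.07, 0.824 to 1.38, and LSD1(OE) over myogenic 1.03, 0.806 to 1.33). The remaining myogenic peaks of Vgll4 included many that only just passed, with 50.6 as the lowest score, and with the lists cut to equal length 8, 10 and 12 peaks were left in the myogenic, adipogenic and LSD1(OE) libraries.

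Across all 9 genes, the 169 peaks merged into 93 regions. Of these, 26 (28.0%) had a peak in all 3 libraries, against 20.6% of all 56729 regions, 28 (30.1%) in the myogenic library only, against 35.9%, and 19 (20.4%) in LSD1(OE) only, against 20.8%. A further 13 (14.0%) were shared by myogenic and LSD1(OE), against 12.2%, and 3 (3.23%) had a peak in the wild-type adipogenic library only, against 3.70%. Where both libraries had a peak, the myogenic density was at least 1.5-fold the adipogenic one at 4 of 29 regions (16.9% of all such regions) and lower by as much at 0 (0.0495% of all). The 4 were the promoter of Tead4, the promoter and upstream peak of Wwtr1, and the peak by Rpl10a downstream of Tead3, with ratios of 1.56 to 1.76. The median over the 29 regions was 1.17, against 1.25 for all regions. LSD1(OE) and adipogenic densities differed by 1.5-fold at 0 of 27 regions, where 2.80% of all regions were higher and 0.0843% lower, with a median of 1.17 against 1.09. LSD1(OE) was 1.5-fold lower than myogenic at 1 of 39 regions, the Wwtr1 promoter (8.79% of all regions were lower), and higher at 0 (0.517% of all). The median was 0.976 against 0.879. These shares are small-number descriptions, and the members' medians lay on both sides of 1 as those of all regions did.

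**Figure D4:**
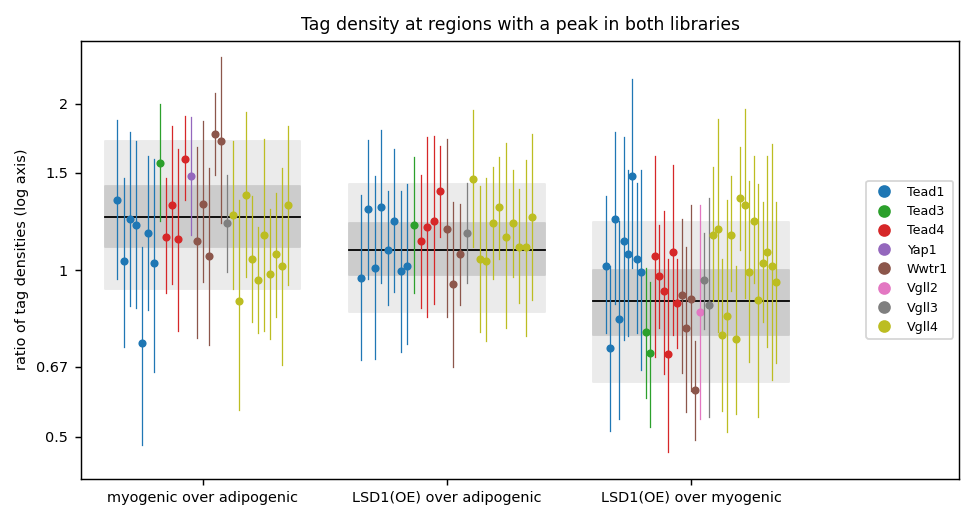
Ratio of Lsd1 tag densities (y axis, log axis) for regions of the 9 genes with a peak in both libraries compared (x axis), coloured by gene, with bars for 95% counting intervals. The black line is the median of all regions, the dark band their quartiles and the light band their 5th to 95th percentile. The Wwtr1 promoter lies lowest in LSD1(OE) over myogenic at 0.608. In myogenic over adipogenic it lies at 1.76, where its adipogenic density joins 2 peaks.

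Sequence features were counted in the 300 bp around each summit. A TEAD core was present in 30.1% (20.8 to 41.4) of the 73 myogenic peaks, 20.0% (10.0 to 35.9) of the 35 adipogenic peaks and 23.0% (14.2 to 34.9) of the 61 LSD1(OE) peaks, against 17.7%, 16.6% and 16.4% of all peaks in these libraries and 14.7% of RefSeq promoter windows of the same length. Peaks in different libraries overlap, so these are not separate observations. An E-box was present in 27.4%, 34.3% and 32.8% (25.8%, 29.3% and 25.9% of all peaks, 16.3% of promoter windows), and an AP-1 site in 21.9%, 22.9% and 18.0% (18.9%, 20.3% and 18.1%, and 7.81%). The share over all peaks lay inside the 95% counting interval of these genes' peaks in 8 of 9 comparisons of motif and library, the TEAD core in the myogenic library being the other one. Over whole peaks that difference too lay inside the interval, with 53.4% (42.1 to 64.4) against 46.3% of all myogenic peaks. The E-box in LSD1(OE) then lay outside, with 67.2% (54.7 to 77.7) of whole peaks against 53.7% of all. A match is a description of letters and not of a bound factor. The promoter peaks of the 9 genes were rich in CpG, with a median of 29.5, 21.0 and 26.5 CpGs in the window, as were all promoter peaks (21.0, 21.0 and 20.0), against 4.00, 4.00 and 3.00 at their other peaks.

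The Hippo pathway around these genes was compared through lists chosen by function, with earlier results of these data known. Among 60 genes, 53 had a promoter peak in the myogenic, 40 in the adipogenic and 51 in the LSD1(OE) library, with 39 in all 3 and 5 in none, against the 46.8%, 27.0% and 37.3% of all genes given above. The kinase module had a promoter peak at 13, 10 and 11 of 13 genes in these libraries, the upstream regulators and scaffolds at 13, 9 and 12 of 16, the genes for Yap and Taz turnover at 10, 6 and 10 of 11, and the Yap and Tead target genes at 20, 18 and 21 of 24. The kinases Lats2, which phosphorylates YAP and TAZ, and Stk38 had promoter scores of 826 and 695 in the myogenic library, against 161 and 89.5 in the adipogenic library and 418 and 187 in LSD1(OE). Sav1, the scaffold of the kinase module, had 771 and 262 in the myogenic and LSD1(OE) libraries and no adipogenic promoter peak. Of the upstream genes, Fat4, an atypical cadherin, had 1372, 299 and 585, the phosphatase gene Ptpn14 had 1197, 497 and 754, and Ajuba, a LIM protein that restrains the Lats kinases and is also on the target list, had 1255, 945 and 1372.

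For Yap and Taz turnover, Ywhaz and Ywhag, which encode 14-3-3 proteins that hold phosphorylated YAP in the cytoplasm, scored 2073 and 670 in the myogenic, 519 and 128 in the adipogenic and 1386 and 302 in the LSD1(OE) library. Fbxw11, a subunit of the ubiquitin ligase for phosphorylated YAP and TAZ, scored 1204, 88.0 and 377. Of the targets, Arhgef17 scored 1558, 136 and 744. By score, Ajuba was highest in LSD1(OE) and the others in the myogenic library, but these genes were named for their myogenic score, which favours that order. Scores are also not on one scale across the libraries, and only scores are given for these genes. Fjx1 and Ptx3, both target genes, were the genes with a promoter peak in LSD1(OE) but not in the myogenic library, at scores of 59.9 and 117. The kinase gene Lats1, singled out after its values were seen, was the 1 list gene with the pattern of Yap1, with promoter scores of 602 (myogenic) and 54.8 (adipogenic) and no peak in LSD1(OE).

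By the strongest peak in each library, the gene among these lists and members that lay nearest to Tead4 was Ptpn14, at a distance of 0.30 on the log2 scale over 3 libraries. Vgll3 and Vgll4 were nearest to each other (0.51), Tead3 to Ywhae (0.43, through the peak in the promoter window of Rpl10a) and Tead1 to Map4k4 (0.80). Yap1 and Vgll2 had no close counterpart, with distances of 1.63 to Csnk1e and 1.61 to Frmd6. With 3 values per gene such distances rank the genes only.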

How the data were processed

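Lsd1 ChIP-seq of 3 conditions was analysed, with 1 ChIP and 1 input library each, grouped by the sample labels. Per the file headers, the authors used MACS 1.4.2 on every ChIP and input pair, with a p cut-off of 1e-05 and the smaller of the pair scaled up. The submitters' processing notes name MACS 1.41 and Bowtie2. The deposited tag counts are raw, after the duplicate filter. Peak scores, as deposited, are −log10 p-values multiplied by 10. The deposited fold enrichment, a ratio over local background, was not compared between libraries. The deposited FDR, in percent, was under 1 for every peak.

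Peaks were assigned by their centre to curated RefSeq genes (26180 genes, 31645 start sites, mm10), merged where they overlapped by at least 1 bp, and compared as tags per kb and per 1000000 ChIP tags. Tag counts have exact Poisson intervals, density ratios exact conditional binomial intervals and motif shares Wilson intervals, all at 95%. A fold of 1.5 was used to count regions. All 9 genes are named. Of each Hippo list, the 3 genes with the highest myogenic promoter score are named, with those that had a promoter peak only in a library from adipogenic medium, and the list gene or member nearest to each of the 9 in log2 score, except for 1 gene that is not reported here. Members and lists were chosen with earlier results of these data known. Promoter sequences are from RefSeq, which matched 7 of the 9 genes. Steps were tested on simulated data, with Python 3.11.15, NumPy 2.4.6, pandas 2.3.3, SciPy 1.17.1 and matplotlib 3.10.9.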

Additional observations from a re-analysis of the deposited data

How the results depend on the processing

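The number of peaks at the 9 genes depended on the threshold. At an FDR under 0.1% it was 36 (myogenic), 16 (adipogenic) and 28 (LSD1(OE)), and at a score of at least 100 it was 40, 18 and 34. With lists cut to an equal length of 18893 peaks, the myogenic library had 26 and LSD1(OE) 34, fewer than the 35 of the adipogenic library, so the order of the libraries turned. With the approximation for unscaled tags, the counts were 41 (myogenic), 30 (adipogenic) and 36 (LSD1(OE)). Here the scores were only divided by the scaling factor and no peaks were called again, so this setting could remove peaks but not add any. Genes with a promoter peak fell to 5 in the myogenic library at equal length, without Tead2, Vgll2 and Vgll4, and to 3 in the adipogenic library at an FDR under 0.1% or a score of at least 100, without Yap1 and Vgll4. Regions in all 3 libraries fell to 11 (FDR) and 15 (equal length), and regions in 1 library to 21 (FDR), 18 (equal length) and 23 (unscaled tags). Pooled over shared regions, the density ratio was 1.27 for myogenic over adipogenic and 0.931 for LSD1(OE) over myogenic, and over the merged region it was 1.37 and 0.875. With only the strongest peak of each library in a region, added after seeing the data, they were 1.27 and 0.93. A TEAD core was present in 53.4%, 60.0% and 47.5% of whole peaks, against 46.3%, 50.9% and 46.6% of all whole peaks, each inside its interval. Vgll2 lost its LSD1(OE) promoter peak under these stricter limits and with unscaled tags. A promoter of 1000 bp removed Tead4 in the adipogenic library, and one of 5000 bp added Tead3 in the myogenic library and Tead3 and Yap1 in LSD1(OE). No paired analysis was possible because each condition has 1 library. The weakest peak had 27 (myogenic), 35 (adipogenic) and 30 (LSD1(OE)) tags, and what sets these numbers was not tested.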
